A study of Mus musculus with 6 samples.

Results

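The genes described were Calcrl, Ramp1, Ramp2, Ramp3 and Adm, 5 of the 33697 mouse genes counted, chosen by name as the shared receptor of calcitonin gene-related peptide (CGRP) and adrenomedullin, its partner proteins and 1 of its ligands. Calcrl encodes the calcitonin receptor-like receptor, a G protein-coupled receptor that needs a receptor activity-modifying protein (RAMP) to reach the cell surface and to bind peptide. With RAMP1 it forms the receptor of CGRP, a neuropeptide of sensory and enteric neurons that relaxes vessels and gut muscle. With RAMP2 or RAMP3 it forms receptors of adrenomedullin, the secreted peptide encoded by Adm, which acts on blood and lymphatic endothelium and is required for lymphatic vessels to develop normally. Signaling runs mainly through Gs, adenylyl cyclases and cyclic AMP.

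Sorting had taken live tdTomato+ cells from the lamina propria, the connective tissue under the gut epithelium, of untreated adult Flare-TSLP mice on the C57BL/6 background. In these mice a floxed cassette with the red fluorescent protein tdTomato sits at the Tslp locus, which encodes the cytokine thymic stromal lymphopoietin, and every library carried it. A pair of droplet-based single-cell libraries came from the proximal small intestine (proximal jejunum) and another pair from the distal small intestine (distal ileum), while the cecum and the large intestine gave 1 library each. Replicate 1 of both small intestinal regions, the cecum and the large intestine carried 1 set of 3 hashtag antibodies and replicate 2 of both regions the other. The methods describe several biological samples per tissue, multiplexed by hashtag, so a library is likely a pool. No source used here pairs hashtags with mice, and each library was taken as 1 sample.

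The libraries held between 109675337 and 206827504 unique molecular identifiers (UMIs, the tags that mark each captured transcript), and between 11174 and 19073 cells per library remained after filtering and doublet removal. Cells were put into classes by fixed marker lists that contained none of the 5 genes, with thresholds set after the data had been seen, and 86725 of the 93558 cells received a class. Each of the 67 lineage markers was highest in the class it marks, which the gate on these same markers largely fixes. Of the classed cells 6.88% lay near a threshold. Fibroblasts (67323 cells) and lymphatic endothelial cells (15461) were the main classes. The others were blood endothelial cells (1204), B or plasma cells (862), smooth muscle cells (739), pericytes (435), T cells or innate lymphoid cells (ILCs, 275), myeloid cells (218), glia (141) and epithelial cells (67). The reporter transcript was sparse in every class. Of the 1204 blood endothelial cells 0 had a UMI of tdTomato or Tslp, which allows a share of up to 0.249%, as did 0 of 275 T cells or ILCs (up to 1.09%), 0 of 141 glia (up to 2.13%) and 0 of 67 epithelial cells (up to 4.48%), whereas 3.35% of the fibroblasts and 1.22% of the lymphatic cells had a tdTomato UMI. The limit lay well below both shares for blood endothelial cells and just below the lymphatic share for T cells or ILCs, while for glia and epithelial cells it lay above the lymphatic share. The study's methods also drop clusters with too few tdTomato-positive cells, a step that was not applied here.

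UMIs were summed per library and class, and levels are UMIs per 1e6 UMIs of that sum (CPM), read from the 3′ ends of transcripts and not scaled by length. A sum was used with at least 20 cells. Values for all libraries follow the order proximal replicate 1, proximal replicate 2, distal replicate 1, distal replicate 2, cecum and large intestine. Tests used edgeR's quasi-likelihood model over all genes with Benjamini-Hochberg adjustment at 0.05, with the library as a block between classes.

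On the GRCm39 assembly Calcrl (ENSMUSG00000059588) lies on chromosome 2, 84160957 to 84255755, on the minus strand, opposite the noncoding gene Gm74802. Ramp1 (ENSMUSG00000034353) lies on chromosome 1, 91107540 to 91152918, plus strand. Ramp2 (ENSMUSG00000001240) lies on chromosome 11, 101136358 to 101150419, plus strand, and overlaps the coding gene Vps25 on the same strand. Ramp3 (ENSMUSG00000041046) lies on chromosome 11, 6608511 to 6627475, plus strand, opposite Gm11978, and Adm (ENSMUSG00000030790) on chromosome 7, 110226858 to 110229027, plus strand, opposite Gm28863 and Gm72687. How the counting treated reads shared with these overlapping genes is not given in the sources used here, so counts other than those of Ramp1 are uncertain to that extent.

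Calcrl, the receptor subunit, was counted in every class and was highest in endothelium. In lymphatic endothelial cells its level was 726, 617, 616, 689, 491 and 555 CPM in the 6 libraries, with a mean of 616 ± 85.8 CPM (SD, n = 6). Fibroblasts had 361, 446, 470.0, 568, 306 and 312 CPM (411 ± 103, n = 6). Lymphatic cells were above the fibroblasts of their own library in 6 of 6 libraries, although the ranges of the classes overlapped, with distal replicate 2 the highest library for fibroblasts and the cecum the lowest for both. The log2 fold change was 0.59 ± 0.11 (standard error, edgeR adjusted p = 0.00126). Blood endothelial cells, measured in 5 libraries because the cecum held 14 of them, had 1027, 774, 942, 830 and 643 CPM (843 ± 149, n = 5). Their level was above that of lymphatic cells in 5 of 5 libraries, and the log2 fold change of lymphatic over blood endothelial cells was -0.48 ± 0.08 (edgeR adjusted p = 0.000898), while that of blood endothelial cells over fibroblasts was 0.94 ± 0.13 (edgeR adjusted p = 0.000135).

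Both pericytes and smooth muscle cells were lower in Calcrl than fibroblasts. The smooth muscle gate did not separate vessel muscle, gut muscle and myofibroblasts. Pericytes, the contractile cells around capillaries, had between 182 and 300.2 CPM (240.4 ± 50.8, n = 5), a log2 fold change of -0.89 ± 0.18 over fibroblasts (edgeR adjusted p = 0.00155). Smooth muscle cells had between 121 and 234 CPM (184 ± 51.5, n = 6), a log2 fold change of -1.29 ± 0.10 (edgeR adjusted p = 1.53e-06), and did not overlap the fibroblasts. T cells or ILCs had 97.5, 92.9, 98.4 and 85.3 CPM in the 4 small intestinal libraries (93.5 ± 5.99). Lower still were myeloid cells, between 33.01 and 57.3 CPM, and glia, between 14.6 and 18.6 CPM. B or plasma cells ranged from 14.2 CPM in proximal replicate 2 to 118 CPM in the large intestine. The near-empty barcodes (100 UMIs or fewer), a measure of free RNA, carried between 249 and 433 CPM of Calcrl, so low levels and low shares of cells include RNA from other cells to an extent that was not tested.

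The share of cells with a Calcrl UMI gave no firm order between the kinds of endothelium. It was 89.8% in blood endothelial cells over 5 libraries and 87.8% ± 5.79 in lymphatic cells over 6 (SD), which include the cecum at 76.3%, and blood endothelium was the higher in 3 of the 5 libraries that hold both. The other shares were 74.2% in fibroblasts, 31.7% in T cells or ILCs and 7.29% in glia. After each cell was thinned to 2500 UMIs the shares were 73.2%, 67.8%, 47.9%, 17.5% and 2.22%, and blood endothelium was the higher in 4 of the 5 libraries, all but the large intestine. The glia share comes from 3 small intestinal libraries of 29 to 55 cells each, and how much of the low shares is free RNA was not tested. Median UMIs per cell ran from 5034 to 7254 over the libraries in glia, from 4592 to 7537 in lymphatic cells and from 6743 to 9915 in fibroblasts.

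**Figure D1:**
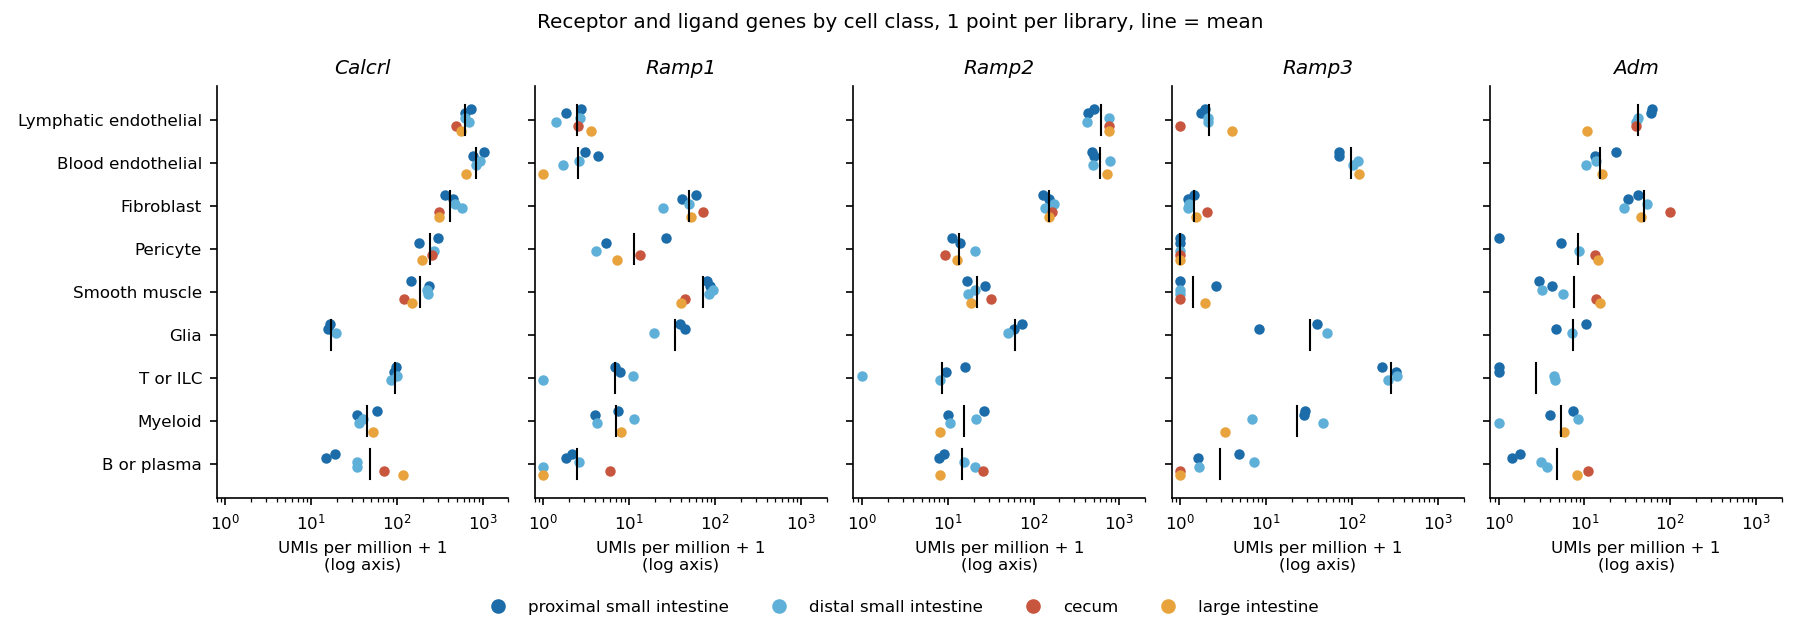
Level of the 5 genes in 9 marker-gated classes, in CPM plus 1 on a log axis, with a point for each library with at least 20 cells of the class and a line at the mean. Calcrl has UMIs in all classes, with free RNA not removed. Ramp2 is highest in both kinds of endothelium (means of 604 and 595 CPM), Ramp3 in T cells or ILCs and blood endothelium, and Ramp1 in smooth muscle cells and fibroblasts.

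Ramp2, the partner for adrenomedullin binding, was highest in endothelium. Lymphatic endothelial cells had 505, 431, 751, 419.7, 762 and 756 CPM (604 ± 169, n = 6) and blood endothelial cells 476, 503, 786, 496 and 713 CPM (595 ± 144, n = 5). The same libraries were high in both, distal replicate 1 and the large intestine, and in lymphatic cells the cecum as well. Fibroblasts had 127, 149, 169.9, 136, 162 and 149 CPM (149 ± 15.99, n = 6), below every endothelial value. The log2 fold change over fibroblasts was 1.96 ± 0.11 in lymphatic (edgeR adjusted p = 7.95e-07) and 1.96 ± 0.10 in blood endothelial cells (edgeR adjusted p = 1.04e-07). Between the kinds of endothelium it was -0.17 ± 0.08, short of the threshold (edgeR adjusted p = 0.0924). It passed with limma-voom (adjusted p = 0.0388), with doublets kept (edgeR adjusted p = 0.0167) and without the large intestine (edgeR adjusted p = 0.0378). Ramp2 was low in pericytes, between 8.23 and 19.9 CPM, and in smooth muscle cells, between 15.96 and 31.1 CPM. Their log2 fold changes over fibroblasts were -3.58 ± 0.24 (edgeR adjusted p = 3.29e-08) and -2.96 ± 0.13 (edgeR adjusted p = 1.06e-08). The pericyte values rest on few counts, since all Ramp genes together had between 4 and 23 UMIs per library there.

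Ramp3, the other partner for adrenomedullin binding, set the kinds of endothelium apart. Blood endothelial cells had 70.4, 70.4, 117, 103 and 120.2 CPM (96.2 ± 24.5, n = 5), against at most 3.00 CPM in lymphatic cells and 1.04 CPM in fibroblasts. The classes did not overlap, and the log2 fold change of lymphatic over blood endothelial cells was -6.47 ± 0.15 (edgeR adjusted p = 2.59e-09). T cells or ILCs were higher still, with 225, 325, 336 and 263 CPM (287 ± 52.7, n = 4) from 438 UMIs, and a UMI in 55.9% of the cells, or 36.9% after thinning, against 0.362% and 0.126% of fibroblasts. Of the 253 cells of this class in these 4 libraries, 251 had a UMI of a Cd3 gene, the signaling chains of the T cell receptor. Cd3 genes are among the markers that define the class, so this count follows largely from the gate. The other markers of the class were mixed with those of B cells, whose 6 marker genes summed to between 81.5 and 8682 CPM in the class, and whose part in the result was not tested. Pericytes had 0 Ramp3 UMIs in 5 libraries, which allows 1.15 CPM over the group.

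Ramp1, the partner that makes the CGRP receptor, was found in stroma and nearly absent from endothelium. Smooth muscle cells had 79.8, 85.1, 92.3, 83.2, 43.9 and 38.6 CPM (70.5 ± 23.1, n = 6) and fibroblasts 59.6, 39.8, 48.9, 23.4, 72.0 and 51.6 CPM (49.2 ± 16.7, n = 6). Smooth muscle was above fibroblasts in the 4 small intestinal libraries and below them in the cecum and the large intestine, so the log2 fold change over all 6, 0.49 ± 0.28, did not pass (edgeR adjusted p = 0.203). Pericytes had between 3.06 and 25.9 CPM, again from few UMIs, a log2 fold change of -2.72 ± 0.30 over fibroblasts (edgeR adjusted p = 5.86e-06). Lymphatic cells had between 0.391 and 2.57 CPM and blood endothelial cells at most 3.35 CPM, with log2 fold changes of -5.29 ± 0.16 (edgeR adjusted p = 4.57e-08) and -4.79 ± 0.29 (edgeR adjusted p = 3.73e-07) against fibroblasts. The highest level of any sum, 171 CPM, came from the 50 epithelial cells of the large intestine, a class measured in that library alone and so without a replicate.

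Adm, the ligand, was highest in fibroblasts and lymphatic endothelial cells. Fibroblasts had 40.9, 30.8, 52.1, 28.1, 97.4 and 45.0 CPM (49.0 ± 25.3, n = 6) and lymphatic cells 61.1, 58.7, 41.0, 38.4, 38.8 and 9.86 CPM (41.3 ± 18.4, n = 6). The cecum was the highest library for fibroblasts and the large intestine the lowest for lymphatic cells. The classes overlapped, and their log2 fold change of -0.17 ± 0.40 did not pass (edgeR adjusted p = 0.734). Blood endothelial cells had between 9.53 and 22.4 CPM, less than lymphatic cells in 4 of 5 libraries (log2 fold change of lymphatic over blood endothelial cells 1.48 ± 0.27, edgeR adjusted p = 0.00116). In the large intestine they had more, 14.8 CPM against 9.86 CPM, so the classes overlapped. Against fibroblasts the log2 fold changes were -1.43 ± 0.17 in blood endothelial cells (edgeR adjusted p = 5.34e-05), -2.42 ± 0.33 in pericytes (edgeR adjusted p = 5.39e-05) and -2.98 ± 0.28 in smooth muscle cells (edgeR adjusted p = 4.44e-06). The pericyte levels ran from 0 CPM in proximal replicate 1 to 13.3 CPM in the large intestine. Of 11 immediate early or heat shock genes, which are known to rise with cell handling, 11 were higher than in fibroblasts in blood endothelial cells (55.1% of all genes passed), 10 were higher in pericytes (25.1%), and 1 was higher and 1 lower in smooth muscle (34.7%). Between lymphatic and blood endothelial cells 1 was higher and 7 lower in lymphatic cells (56.7%). Of the hypoxia genes 5 of 10 were higher and 1 lower in blood endothelial cells than in fibroblasts, 3 and 1 of 10 in pericytes and 8 and 0 of 10 in smooth muscle, while 2 of 9 were higher and 6 lower in lymphatic than in blood endothelial cells. The part of these genes in the Adm differences was not tested. Free RNA carried 130 CPM of Adm in the cecum and between 37.5 and 58.4 CPM elsewhere. An Adm UMI was found in 20.0% of fibroblasts and 14.8% of lymphatic cells, or 8.88% and 7.79% after thinning, and in 0.978% and 0% of T cells or ILCs.

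Read against all genes, the members' counts were as follows. In lymphatic cells against fibroblasts 4 of the 5 passed, 3 higher and 1 lower (Ramp3 among them from levels of at most 3.00 CPM), where 65.2% of all genes tested passed. Against blood endothelium 3 of 4 tested passed (56.7% of all genes), in blood endothelium against fibroblasts 5 of 5 (55.1%), in pericytes 4 of 5 (25.1%) and in smooth muscle 3 of 5 (34.7%). In T cells or ILCs against fibroblasts 5 of 5 passed (47.4%), with a log2 fold change of 9.67 ± 0.23 for Ramp3 (edgeR adjusted p = 4.19e-40) and of -2.55 ± 0.17 for Calcrl (edgeR adjusted p = 1.35e-19). Adm there was -5.06 ± 0.54 (edgeR adjusted p = 6.68e-12) and -5.85 without distal replicate 2. In both proximal libraries 0 T cells or ILCs had an Adm UMI, so the size of this fold is uncertain. Of the immediate early or heat shock genes 2 of 11 were higher and 7 lower than in fibroblasts, and of the hypoxia genes 4 and 3 of 10. Their part in the Adm value was not tested. The median of all genes in that last comparison was -0.57. With such backgrounds a call alone says little, and the sizes and the absent overlap carry the description. Comparisons against fibroblasts share the fibroblast sums. Those of blood endothelium and of T cells or ILCs with fibroblasts, and all comparisons within smooth muscle and fibroblast subsets between regions and the interactions, were chosen after seeing the data.

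**Figure D2:**
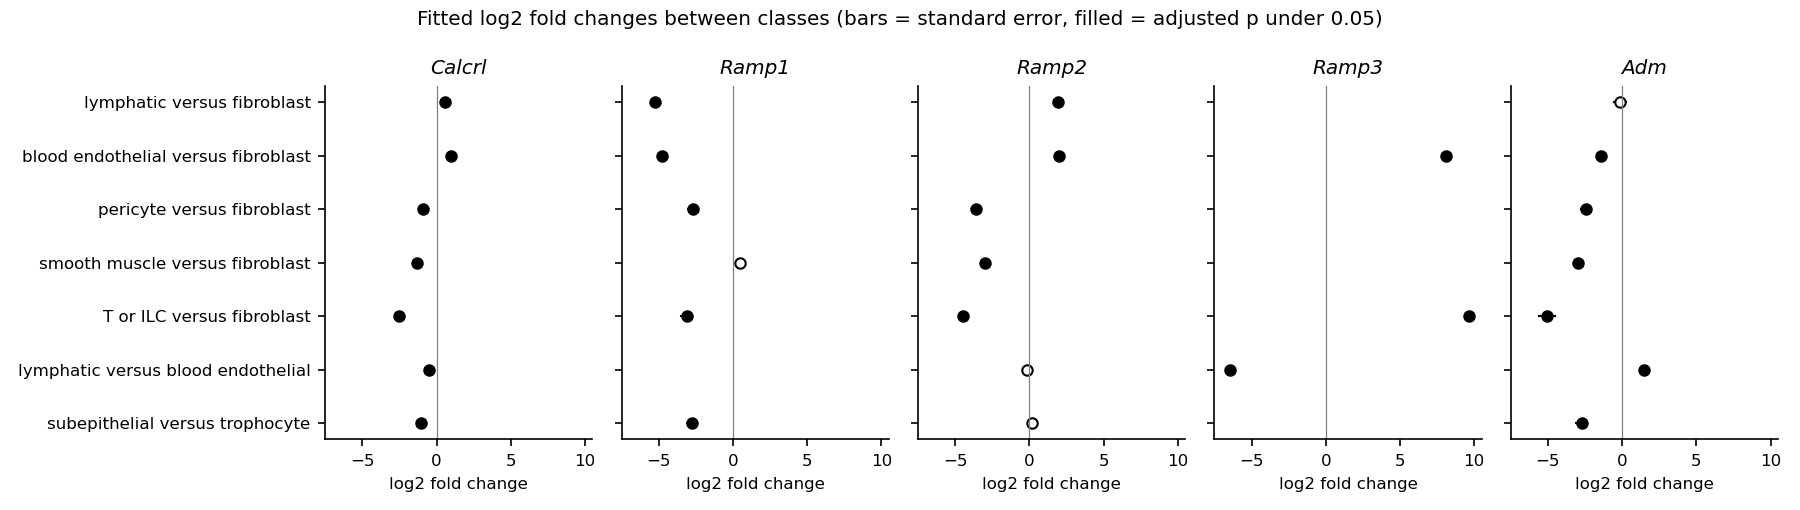
Log2 fold change of the 5 genes in the class comparisons, with standard errors as bars and filled points at an edgeR adjusted p under 0.05. Ramp1 lies below 0 in endothelium and pericytes. Ramp2 lies above 0 in both kinds of endothelium and below 0 in pericytes and smooth muscle cells. Ramp3 lies far above 0 in blood endothelium and T cells or ILCs. Ramp3 of lymphatic cells against fibroblasts is left out, since both levels were under 5 CPM.

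The UMIs of the 3 Ramp genes together were divided differently in each class. Ramp2 made up 99.6% ± 0.18 of them in lymphatic cells (SD, n = 6). In blood endothelial cells it was 85.8% ± 1.84 and Ramp3 13.9% ± 1.99 (n = 5). Fibroblasts had 75.4% ± 6.53 Ramp2 and 24.4% ± 6.44 Ramp1, smooth muscle cells 75.1% ± 10.3 Ramp1, and T cells or ILCs 95.4% ± 2.67 Ramp3 (n = 4). The adrenomedullin-type partners thus made up most of the Ramp UMIs in endothelium, fibroblasts and T cells or ILCs, and the CGRP-type partner in smooth muscle. These are shares of transcripts and say nothing of receptor protein. In the smooth muscle cells of the cecum the Ramp1 share was 58.5%, from 41 Ramp UMIs. Free RNA carried between 184 and 242 CPM of Ramp2, above every fibroblast level, and between 19.5 and 66.8 CPM of Ramp1. How much of the make-up outside endothelium is free RNA was not tested.

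**Figure D3:**
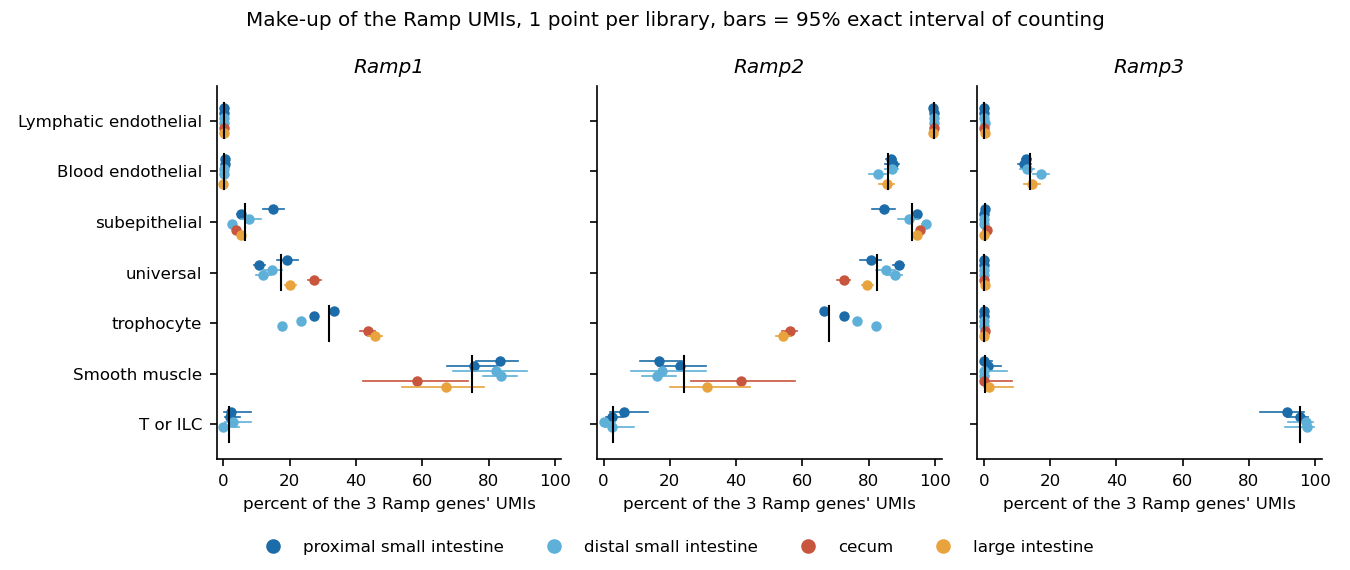
Share of the UMIs of Ramp1, Ramp2 and Ramp3 together, in percent, taken by each gene in 7 classes, 1 point per library, with 95% exact intervals of counting error as bars and a black line at the mean. Lymphatic cells lie at 99.6% Ramp2 on average, smooth muscle cells at 75.1% Ramp1 and T cells or ILCs at 95.4% Ramp3.

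Fibroblasts were divided by markers into trophocytes (28499 cells, the submucosal kind that feeds stem cells with Wnt agonists and BMP antagonists), subepithelial fibroblasts (5958), universal fibroblasts (4302) and the rest. Trophocytes had more of both the CGRP partner and the ligand than subepithelial fibroblasts. For Ramp1 the rest lay near the trophocytes. After thinning, a Ramp1 UMI was found in 13.4% of trophocytes and 11.9% of the rest. The shares were 7.99% in universal and 2.42% in subepithelial fibroblasts (means over 6 libraries). Ramp1 was at 56.6, 45.8, 48.9, 25.3, 85.8 and 105 CPM in trophocytes and at 21.2, 8.81, 17.3, 3.93, 10.1 and 7.70 CPM in subepithelial fibroblasts, which did not overlap (log2 fold change of subepithelial over trophocyte -2.78 ± 0.31, edgeR adjusted p = 0.000345). Adm was at 56.5, 47.5, 63.5, 38.6, 156 and 79.0 CPM in trophocytes and at 5.38, 3.29, 10.7, 5.81, 32.7 and 41.1 CPM in subepithelial fibroblasts (-2.72 ± 0.37, edgeR adjusted p = 0.000892), lower in 6 of 6 libraries. Universal fibroblasts, the adventitial kind marked by Pi16 and Dpp4, had between 13.2 CPM of Adm in proximal replicate 1 and 125 CPM in the cecum. Ramp2 lay between 111 and 160 CPM in trophocytes and between 121 and 258 CPM in subepithelial fibroblasts, a log2 fold change of 0.18 ± 0.14 that did not pass (edgeR adjusted p = 0.341), though it was higher in subepithelial fibroblasts in 6 of 6 libraries. For Calcrl the levels were 322, 434, 443, 603, 225 and 352 CPM in trophocytes and 200.1, 271, 183, 245, 310.4 and 143 CPM in subepithelial fibroblasts, lower in 5 of 6 libraries and higher in the cecum. Its log2 fold change of -1.04 ± 0.23 passed (edgeR adjusted p = 0.00802), but with a stricter gate it was -0.24 and did not (edgeR adjusted p = 0.596). Of the 4 members tested 3 passed here (45.4% of all genes). Immediate early or heat shock genes moved with Adm in this comparison, with 11 of 11 lower in subepithelial fibroblasts. Of the hypoxia genes 4 of 9 tested were higher there and 1 lower, with a median log2 fold change of 0.57. The part of both lists in the result was not tested.

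Between the distal and the proximal small intestine 0 of the 5 members passed in fibroblasts, where 0.00525% of all genes did, and 0 of 5 in lymphatic cells, where 0% did. In the lymphatic comparison edgeR found 607 genes at an unadjusted p under 0.05, limma-voom called 0 genes and DESeq2 34. Adm in lymphatic cells was at 61.1 and 58.7 CPM proximally and at 41.0 and 38.4 CPM distally, without overlap. Its log2 fold change of -0.62 ± 0.12 had an unadjusted p of 0.00111 in the edgeR fit and an adjusted p of 0.526. The replicate numbers coincide with the hashtag sets, and with them as a block Adm passed (-0.62, edgeR adjusted p = 0.00119), lower distally within both sets.

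The cecum and the large intestine, pooled as large bowel with 1 library each, were compared with the 4 small intestinal libraries. All of these comparisons rest on 2 libraries that belong to different tissues and to 1 hashtag set. The makeup of the fibroblasts moved too. Trophocyte markers summed to between 2579 and 3669 CPM in the small intestine and to 1683 and 921 CPM in the cecum and the large intestine, and subepithelial markers to between 60.7 and 155 CPM and to 479 and 1354 CPM, so the subsets were tested as well. In fibroblasts 1 of the 5 members passed (28.8% of all genes), which was Ramp3 at levels of at most 1.04 CPM, and in lymphatic cells 0 of 5 (21.5%). Calcrl in fibroblasts was at 306 and 312 CPM in the large bowel, below the lowest small intestinal value of 361 CPM. The log2 fold change was -0.53 ± 0.19 (edgeR adjusted p = 0.0730), and it passed with DESeq2 (adjusted p = 0.0322). Lymphatic cells gave -0.37 ± 0.13 for Calcrl (edgeR adjusted p = 0.0768), which passed without distal replicate 1 at -0.43 (edgeR adjusted p = 0.0304). Ramp2 in lymphatic cells was 0.50 ± 0.22 (edgeR adjusted p = 0.130), and without distal replicate 1, a small intestinal library with as much Ramp2 as the large bowel, it was 0.69 (edgeR adjusted p = 0.00480).

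Adm differed between fibroblasts and lymphatic cells in how it varied along the gut. In fibroblasts its log2 fold change in the large bowel was 0.96 ± 0.39 (edgeR adjusted p = 0.0985), 1.45 without the large intestine (edgeR adjusted p = 0.0345) and 0.22 without the cecum, whose 97.4 CPM decided the value. Hypoxia genes were higher there in 6 of 10 and immediate early or heat shock genes in 3 of 11, with none lower, where 28.8% of all genes passed, and the latter summed to 25241 CPM in the cecum against 6220 to 9702 CPM in the other libraries. In lymphatic cells it was -1.24 ± 0.44 (edgeR adjusted p = 0.0733), -2.43 without the cecum and -0.43 without the large intestine, whose 9.86 CPM was the lowest. Of 13 alternatives for lymphatic cells 3 passed the threshold and 10 did not. The difference between the classes, tested as an interaction, was -2.23 ± 0.44 and passed (edgeR adjusted p = 0.0186, as did 9.55% of all genes). In this same contrast 0 of 10 hypoxia genes were higher and 4 lower, with a median log2 value of -1.38 against -0.12 over all genes, and 0 of 11 immediate early or heat shock genes were higher and 1 lower. It lost the threshold without either large bowel library, at -2.69 without the cecum (edgeR adjusted p = 0.0806) and -1.93 without the large intestine (edgeR adjusted p = 0.139). Among subsets by valve genes the large intestine was the lowest or second lowest library in each, with 5.04 CPM of Adm in valve or collector cells, 6.99 CPM in cells with 1 valve gene and 27.8 CPM in cells without, from 4, 8 and 11 UMIs. The cecum varied, with 57.9, 27.9 and 26.0 CPM in the same order from 29, 13 and 9 UMIs, and in valve or collector cells lay beside the highest other library (57.5 CPM). Of the same lists 1 of 9 hypoxia genes was higher and 2 lower in lymphatic cells, and 0 of 11 immediate early or heat shock genes passed (21.5% of all genes passed). The fibroblast markers in lymphatic cells summed to between 493 and 995 CPM in the small intestine and to 1057 and 882 CPM in the cecum and the large intestine, and the valve markers to between 638 and 688 CPM and to 510.4 and 453 CPM. The pericyte markers summed to between 225 and 287 CPM in the small intestine and between 51.8 and 52.3 CPM in the large bowel. For the lymphatic markers these sums were 16600 to 17380 CPM and 21762 to 21977 CPM. The part of these lists in the result was not tested.

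In trophocytes 2 of 5 members passed in the large bowel (21.6% of all genes). Ramp1 was at 85.8 and 105 CPM there, above the small intestinal values of 25.3 to 56.6 CPM (log2 fold change 1.17 ± 0.29, edgeR adjusted p = 0.0273). It was short of the threshold without proximal replicate 2 (1.19, edgeR adjusted p = 0.0572), without the cecum (1.26, edgeR adjusted p = 0.102) and without the large intestine (1.06, edgeR adjusted p = 0.0913). Adm was at 156 and 79.0 CPM against 38.6 to 63.5 CPM (1.27 ± 0.31, edgeR adjusted p = 0.0255). Without the cecum it was 0.63 (edgeR adjusted p = 0.212), and it was also short of the threshold without proximal replicate 1 (1.34, edgeR adjusted p = 0.0536), proximal replicate 2 (1.23, edgeR adjusted p = 0.0586) or distal replicate 2 (1.15, edgeR adjusted p = 0.0506). The regions did not overlap for either gene, but the calls depend on single libraries. The study found trophocytes mainly in its small intestinal samples. The gated class can therefore hold different kinds of fibroblast in the regions, which was not tested. In trophocytes 7 of 11 immediate early or heat shock genes and 5 of 10 hypoxia genes were also higher in the large bowel and 0 lower (21.6% of all genes passed), and their part in the Adm result was not tested. The trophocyte markers in this class summed to 3109.5 and 3209 CPM in the cecum and the large intestine against 3902 to 4246 CPM in the small intestine, and the subepithelial markers to 114 and 144 CPM against 44.1 to 63.9 CPM. The pericyte markers summed to between 55.9 and 164 CPM in the large bowel against 528 to 1250 CPM. The part of these markers in the Ramp1 and Adm results was not tested either.

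Adm was also higher in the subepithelial fibroblasts of the large bowel. Its level was 32.7 CPM in the cecum and 41.1 CPM in the large intestine against 3.29 to 10.7 CPM in the small intestine, a log2 fold change of 2.88 ± 0.33 (edgeR adjusted p = 0.00134). The gated class can hold different kinds of subepithelial cell in the 2 regions, which a marker gate does not separate, and this was not tested. Adm was the only 1 of the 4 members tested to pass (32.1% of all genes), and it stayed past the threshold in 12 of 12 alternatives, with values between 2.43 and 4.66. Several other lists moved with it. Of the immediate early or heat shock genes 11 of 11 were higher in the large bowel, with summed levels of 13753 and 7286 CPM against 709 to 2502 CPM. Of the genes induced by low oxygen, a group to which Adm is known to belong, 6 of 9 tested were higher and 0 lower. The subepithelial marker genes summed to 2098 and 3094 CPM against 854 to 1089 CPM, and the fibroblast markers to 19535 and 15972 CPM against 10141 to 12475 CPM. The universal fibroblast markers summed to between 317 and 742 CPM against 224 to 414 CPM, which overlapped, and the blood endothelial markers to between 7.50 and 17.2 CPM against 90.4 to 160 CPM. Their part in the result was not tested.

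Smooth muscle cells went the other way for Ramp1. Their 43.9 and 38.6 CPM in the large bowel lay below the 79.8 to 92.3 CPM of the small intestine (log2 fold change -0.96 ± 0.19, edgeR adjusted p = 0.00927), and the call was lost without the large intestine (-0.83, edgeR adjusted p = 0.123). Adm was higher there, at 12.8 and 14.1 CPM against 1.99 to 4.60 CPM (2.10 ± 0.49, edgeR adjusted p = 0.0216). Free RNA carried 130 CPM of Adm in the cecum and between 37.5 and 58.4 CPM elsewhere. At the 10% subtracted as an alternative, free RNA would cover the whole Adm level of the cecum, though not that of the large intestine. Adm had a value in 12 alternatives here, against 13 for Ramp1. The part of free RNA in these low levels was not tested. In smooth muscle 5 of 11 immediate early or heat shock genes were also higher in the large bowel and 0 lower (10.4% of all genes passed), and 0 of 8 hypoxia genes were higher and 2 lower. The call for Adm was lost without the cecum (2.17, edgeR adjusted p = 0.104), the large intestine (2.04, edgeR adjusted p = 0.203) or proximal replicate 1 (1.90, edgeR adjusted p = 0.0566), and with DESeq2 (adjusted p = 0.0628). These were 2 of 4 members tested (10.4% of all genes). The change of Ramp1 in smooth muscle relative to that in fibroblasts was -1.65 ± 0.31 on the log2 scale (edgeR adjusted p = 0.000852, as did 4.33% of all genes), and passed in 10 of 10 alternatives. In that contrast 0 of 10 hypoxia genes were higher and 5 lower, with a median log2 value of -1.23 against -0.14 over all genes, and 0 of 11 immediate early or heat shock genes passed. In the smooth muscle class the fibroblast markers summed to 8367 and 6174 CPM in the large bowel and to between 3804 and 5666 CPM in the small intestine, and the smooth muscle markers to 12876 and 10439 CPM against 13188 to 16106 CPM. Their part in these results was not tested.

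Within the hashtag set that holds both large bowel libraries, where replicate 1 of each small intestinal region is the only comparison, the directions of the called values stayed. Ramp1 was 0.91 in trophocytes (edgeR adjusted p = 0.0336) and -0.96 in smooth muscle (edgeR adjusted p = 0.0466). Adm was 2.43 in subepithelial fibroblasts (edgeR adjusted p = 0.0246), 2.74 in smooth muscle (edgeR adjusted p = 0.0282) and 1.05 in trophocytes, where it no longer passed (edgeR adjusted p = 0.122). Of the values that had not passed, Adm was 0.62 in fibroblasts and -1.23 in lymphatic cells, and Calcrl -0.45 and -0.35 in the same order. The other set held small intestinal libraries alone.

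**Figure D4:**
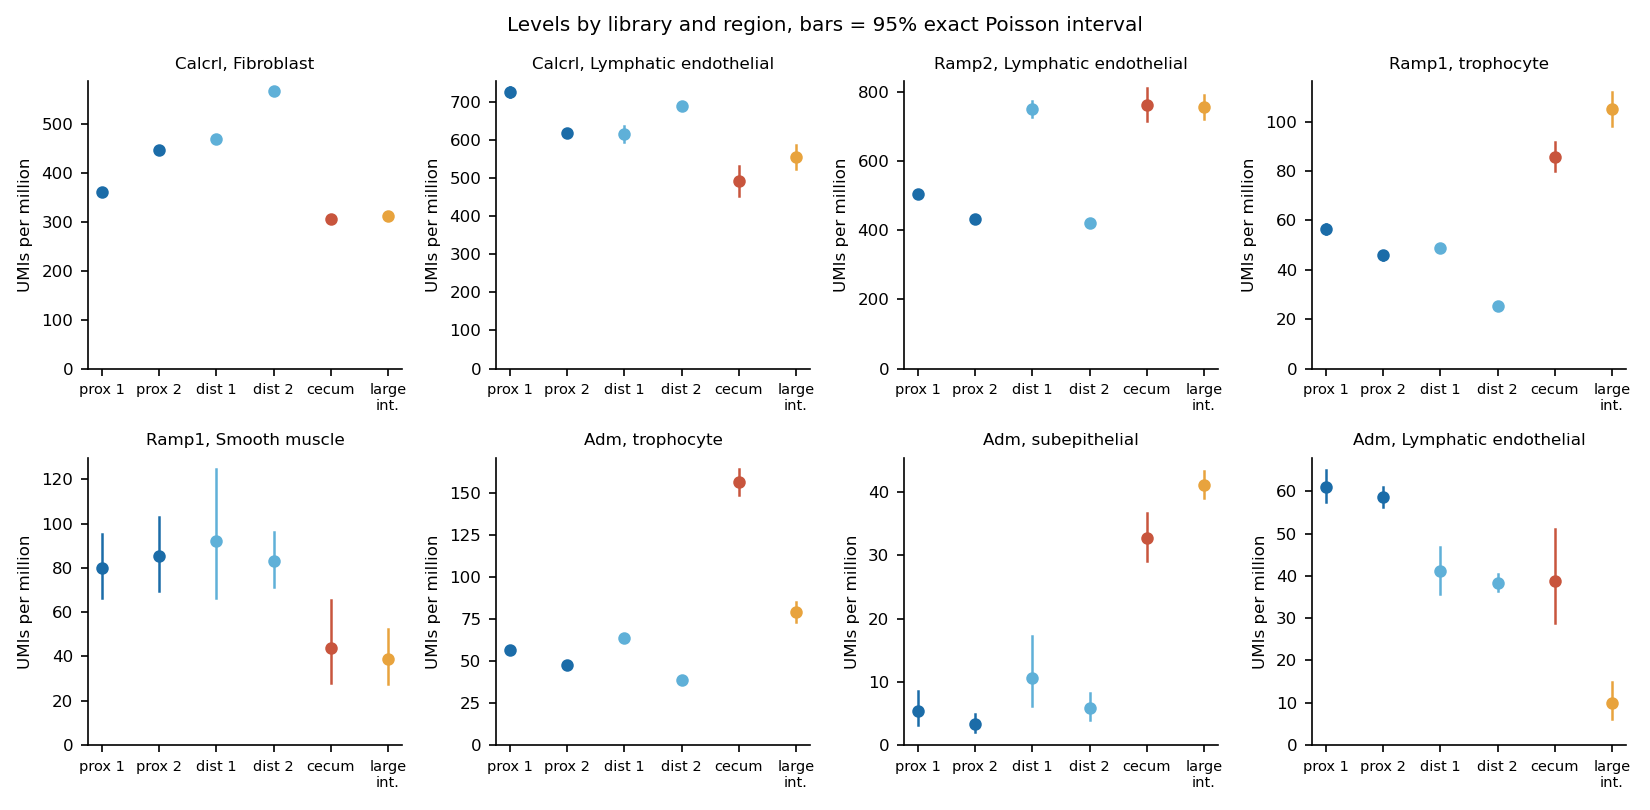
Level in CPM of Calcrl, Ramp1, Ramp2 and Adm in 8 pairs of gene and class, 1 point per library, ordered by region, with 95% exact Poisson intervals that cover counting error only. Adm in subepithelial fibroblasts (32.7 and 41.1 CPM) and Ramp1 in trophocytes (85.8 and 105 CPM) are higher in the cecum and the large intestine than in all small intestinal libraries, and Ramp1 in smooth muscle (43.9 and 38.6 CPM) is lower.

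Within fibroblasts, cells with and without a Calcrl UMI were compared after each cell had been thinned to 2500 UMIs. Ramp2 was found in 32.9% ± 3.53 of the cells with a Calcrl UMI and in 26.9% ± 1.83 of those without (SD, n = 6 libraries), higher in 6 of 6 libraries. Adm went the opposite way, in 5.78% ± 2.73 of the cells with a Calcrl UMI and 11.7% ± 4.71 of those without, lower in 6 of 6. Both gave p = 0.03125 in an exact sign-flip permutation test over the libraries (two-sided), the smallest that 6 libraries allow, and an adjusted p of 0.0833 over the 16 tests, which misses the threshold. No single test could have passed, since an adjusted p under 0.05 needs most of the 16 tests at this smallest p. The same direction in 6 of 6 libraries was seen within trophocytes, for Ramp2 (29.3% against 22.3%) and Adm (9.07% against 15.4%), and within fibroblasts of no subset (34.6% against 30.3% and 4.31% against 8.91%). Neither universal nor subepithelial fibroblasts were tested. The former had both directions in 6 of 6 libraries, while the latter did not share them fully, with Ramp2 higher with Calcrl in 4 of 6 libraries and Adm lower in 5 of 6, by little in several (6.39% against 6.57% in the cecum). In lymphatic cells the shares lay close together, at 70.7% and 71.8% for Ramp2 (exact permutation p = 0.1875, adjusted p = 0.375) and at 7.67% and 7.99% for Adm. Cells with a Tslp UMI had 65.7 ± 12.3 CPM of Adm and the other fibroblasts 48.8 ± 25.5 CPM (n = 6), higher in 5 of 6 libraries (exact permutation p = 0.0625, adjusted p = 0.3125 over 5 members). Ramp1 differed by more, at 79.2 ± 45.9 against 48.8 ± 16.4 CPM, higher in 4 of 6 libraries (exact permutation p = 0.125, adjusted p = 0.3125). Ramp2 was at 128 ± 42.5 against 149 ± 15.8 CPM, higher in 2 of 6, and Calcrl was higher in 3 of 6. With a smallest possible p of 0.03125, no single member could have passed after adjustment over the 5.

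**Figure D5:**
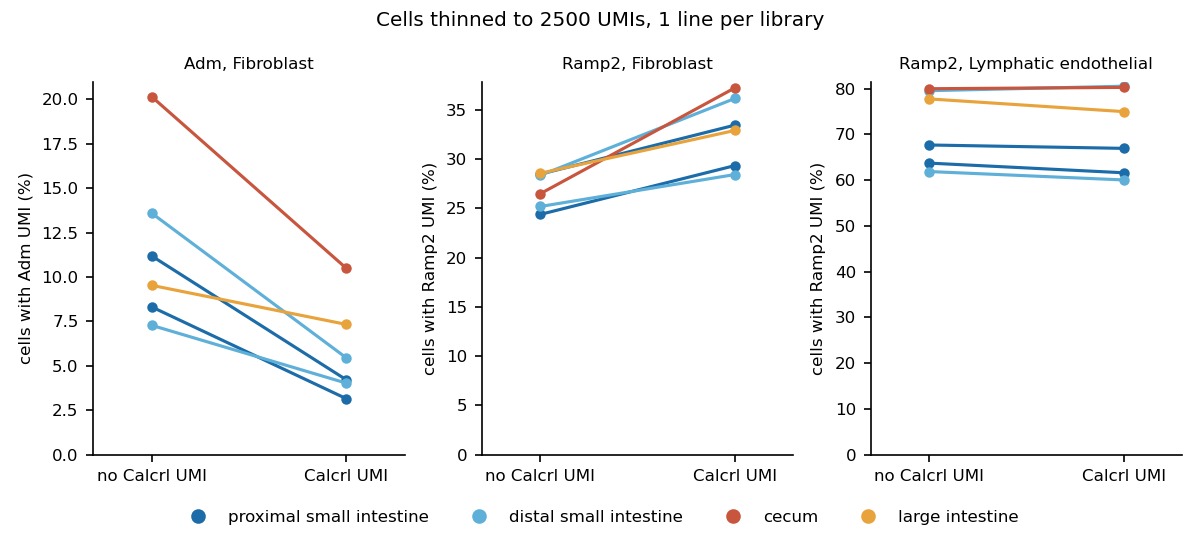
Share of cells, in percent after thinning to 2500 UMIs, with a UMI of Adm or Ramp2 among cells with and without a Calcrl UMI, with a line joining the values of each library. In fibroblasts the mean for Adm is 5.78% with and 11.7% without Calcrl and Ramp2 is higher with Calcrl in 6 of 6 libraries, while in lymphatic cells Ramp2 is at 70.7% and 71.8%.

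The list of 31 further genes of the pathway covered ligands, other receptors, peptide breakdown and signaling. Of 26 tested, 10 were higher and 12 lower in lymphatic cells than in fibroblasts (65.2% of all genes passed), with a median log2 fold change of -0.20 against -0.07 for all genes, and in blood endothelium 10 were higher and 10 lower than in fibroblasts of 25 tested (55.1% of all genes). Among the ligands, Calca, which encodes CGRP, had 0 UMIs in both kinds of endothelium, and Calcb and Adm2 were near 0 in the classes, at most 5.49 CPM (3 UMIs in the smooth muscle cells of the cecum) and 0.37 CPM. A higher level was found in the T cells or ILCs of distal replicate 1, with 50.9 CPM of Calca from 15 UMIs, while the other 3 libraries had 0. Pam, the enzyme that amidates these peptides into their active form, was lower in lymphatic cells (-0.61 ± 0.11, edgeR adjusted p = 0.00114) and blood endothelium (-1.06 ± 0.10, edgeR adjusted p = 1.05e-05) than in fibroblasts.

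Other receptors stood out in the endothelium. Gpr182, an atypical receptor once proposed to bind adrenomedullin, was at 173, 162, 185, 188, 108 and 98.2 CPM in lymphatic cells and at most 2.32 CPM in fibroblasts (7.43 ± 0.36, edgeR adjusted p = 4.22e-07). In the large bowel it was lower in lymphatic cells (-0.81 ± 0.13, edgeR adjusted p = 0.00263), as Calcrl was without passing. Ackr3, a scavenging receptor that also takes up adrenomedullin, was higher in lymphatic cells (1.89 ± 0.31, edgeR adjusted p = 0.000755) and blood endothelium (2.02 ± 0.26, edgeR adjusted p = 0.000109) than in fibroblasts. In the large bowel it was higher in fibroblasts, at 256 and 165 CPM against 38.9 to 64.7 CPM (2.06 ± 0.23, edgeR adjusted p = 0.00259), and in trophocytes (2.61 ± 0.13, edgeR adjusted p = 7.21e-05).

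Of the enzymes and signaling genes, Ece1, a peptidase of vasoactive peptides, was higher in lymphatic cells than in fibroblasts (3.02 ± 0.15, edgeR adjusted p = 5.59e-07), and so was the adenylyl cyclase gene Adcy4 (4.27 ± 0.12, edgeR adjusted p = 3.30e-08). Adcy4 was also higher in blood endothelium (6.20 ± 0.11, edgeR adjusted p = 1.30e-09). Smooth muscle cells had another cyclase, Adcy5 (2.26 ± 0.10, edgeR adjusted p = 8.52e-09), and the cyclic AMP phosphodiesterase Pde4d (2.29 ± 0.15, edgeR adjusted p = 2.87e-07) above fibroblasts. In smooth muscle 9 of 27 tested genes of the list were higher and 6 lower than in fibroblasts (34.7% of all genes passed), in pericytes 10 and 6 of 26 (25.1%), in subepithelial fibroblasts against trophocytes 9 and 9 of 26 (45.4%), and in T cells or ILCs 5 and 13 of 25 (47.4%). Between the distal and the proximal small intestine 0 of the list passed in either class, while in the large bowel 5 were higher and 6 lower of 27 in fibroblasts (28.8% of all genes) and 4 and 7 of 25 in lymphatic cells (21.5%). Within trophocytes 3 were higher and 4 lower of 26 (21.6%), within subepithelial fibroblasts 3 and 8 of 24 (32.1%) and within smooth muscle cells 2 and 3 of 21 (10.4%).

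The genes most like each member were found by Pearson's correlation of log2(CPM + 1) over 47 sums of class and library among 10237 genes, a description in which sums of 1 library share their depth and free RNA. Calcrl was most like Asap1 (r = 0.88), Galnt15, Ackr3, Meis2 and Fzd4. Ramp1 was most like Pxylp1 (0.88), Pcdh9 and Bmpr1a, Ramp2 most like Cpne8 (0.88), Zfp423, Fgd5 and Erg, Ramp3 most like Orai1 (0.88), Camk4 and Nebl, and Adm most like Igfbp4 (0.79) and Mtch1. Among the members Calcrl correlated with Ramp2 at 0.69 and with Adm at 0.60.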

How the data were processed

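The authors aligned reads of 3′ droplet libraries to the mm39 genome, extended by tdTomato, and deposited raw UMI counts of every barcode. The submitters' notes name Cell Ranger 8.1.0 and the matrix header 8.0.1. No deposited value had been filtered or corrected for free RNA.

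Cells were barcodes of 2500 to 40000 UMIs and 1000 to 7500 genes with a mitochondrial share under 10%, the limits of the study's methods. Scrublet (0.8% per 1000 cells) replaced DoubletFinder, marking 8976 of 102534 cells, and neither SoupX nor the study's removal of clusters by tdTomato was run. At most 0.609% of cell barcodes were shared by any pair of libraries. A marker was on when its UMIs passed the 99th percentile of a Poisson distribution at 10% free RNA, and a class needed at least 50% of its markers on and a lead of 25 points (fibroblast subsets 2 markers and 15 points). These thresholds were set after the data had been seen, and the members and lists were chosen with earlier results of these data known.

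Sums per library and class of at least 20 cells were tested with edgeR's quasi-likelihood test (TMM, filterByExpr, Benjamini-Hochberg at 0.05), with a library block between classes and none between regions. The standard error is the size of the fold change divided by the square root of F. Folds are given for means of at least 5 CPM in a group. Named genes were the 5 members, the 31-gene pathway list (by counts, with values for part of the genes past the threshold and for ligands near 0, and 1 gene not reported here), lists of 10 hypoxia and 11 immediate early or heat shock genes, and the 5 genes most like each member among those with a mean of at least 10 CPM. The study names biological samples per small intestinal region but does not tie them to libraries, so p-values measure the spread between libraries, which may be technical. Alternatives were limma-voom, DESeq2, no filter, blocks changed, doublets kept, a stricter gate, 10% free RNA subtracted, each library left out and, added later, the number 1 libraries alone. Of the edgeR comparisons, those of lymphatic cells with fibroblasts and of fibroblasts between large bowel and small intestine were also run on simulated data. Versions were edgeR 4.0.16, DESeq2 1.42.0 and limma 3.58.1 in R 4.3.3, and scanpy 1.11.5, pandas 2.3.3, scipy 1.17.1, numpy 2.4.6 and matplotlib 3.10.9 in Python 3.11.15.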

Additional observations from a re-analysis of the deposited data

Results flagged for a closer look

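Ramp1 in smooth muscle relative to fibroblasts took opposite sides along the gut. Its mean log2 ratio of the levels plus 1 CPM was 1.05 over the 4 small intestinal libraries, each above 0, and -0.56 over the cecum and the large intestine, both below 0. The difference between regions, tested as an interaction in edgeR, was -1.65 ± 0.31 (adjusted p = 0.000852). This interaction and that of Adm were chosen after these data had been seen.

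The other difference between classes was that of Adm, whose change in the large bowel was lower in lymphatic cells than in fibroblasts by an interaction of -2.23 ± 0.44 on the log2 scale (edgeR adjusted p = 0.0186). It did not pass without the cecum (-2.69, edgeR adjusted p = 0.0806) or without the large intestine (-1.93, edgeR adjusted p = 0.139). Both rest on 1 library of cecum and 1 of large intestine.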

How the results depend on the processing

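Between classes, alternatives changed the call of a member for Ramp2 in lymphatic against blood endothelial cells (gained in 3) and Calcrl in subepithelial fibroblasts against trophocytes (lost in 1). Of the values of single genes and shares under an alternative, 645 kept direction and side of the threshold, 16 gained the threshold, 16 lost it, 9 reversed and 26 shares moved by more than 1 SD. The reversals were all of changes that had not passed. Adm in lymphatic cells against fibroblasts was 0.32 with limma-voom, 0.03 without the cecum and 0.15 without the large intestine, over a range from -0.45 to 0.15 with each library left out. In the large bowel against the small intestine Ramp2 in trophocytes was 0.093 without distal replicate 1 (range -0.11 to 0.093), and in subepithelial fibroblasts Calcrl was -0.52 (range -0.52 to 0.64) and Ramp2 -0.071 (range -0.071 to 0.89) without the cecum, while Ramp1 was 0.10 with limma-voom, 0.055 with doublets kept and 0.11 without proximal replicate 1 (range -0.65 to 0.11). The cause was not tested.

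Counts of genes past the threshold over all genes moved as follows. Distal against proximal fibroblasts gave 1 gene, but 0 with limma-voom, doublets kept or free RNA subtracted, 131 with DESeq2, 25 without the filter, 2 with the stricter gate and 0 to 11 with 1 library left out. The lymphatic comparison gave 0, 34 with DESeq2, 205 without the filter and 0 to 116 with 1 library left out. With the replicate number as a block (replicate block) these counts were 268 and 301, and Adm in lymphatic cells passed (-0.62, edgeR adjusted p = 0.00119), the only member whose call the block changed. The numbers are not said to pair the libraries. The deviations of same-numbered libraries from the mean of their region correlated at 0.60 over 5290 genes in fibroblasts and at 0.42 over 5313 genes in lymphatic cells. With 2 libraries per region both pairs give the same value by construction, so each class has only 1 such value.

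In the large bowel comparisons the number 1 libraries alone gave 1337 of 5649 genes in fibroblasts, 1537 of 3032 in lymphatic cells, 569 of 1075 in smooth muscle, 803 of 4474 in subepithelial fibroblasts and 1055 of 3892 in trophocytes, with fewer libraries tested. Leaving out 1 library gave 2719 to 6080, 1169 to 3977, 328 to 1237, 2511 to 5206 and 1057 to 4234 in the same order, and 706 to 1717 (of 1901) and 475 to 1040 (of 804) for the interactions of lymphatic cells and smooth muscle with fibroblasts. Smooth muscle gave 1809 without the filter. Pericytes against fibroblasts gave 4543 genes and 7134 with limma-voom, and subepithelial fibroblasts against trophocytes 7057 genes, 3921 without the library block and 3656 with the stricter gate.

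DESeq2's scaling moved the median of all genes by 0.24 in pericytes, 0.33 in T cells or ILCs and 0.12 in smooth muscle against fibroblasts. Higher and lower calls were 1852 and 2691 in pericytes (2158 and 2013 with DESeq2) and 2525 and 3920 in smooth muscle (3114 and 3153). Depth limits the values of Adm in smooth muscle, which rest on 1 to 15 UMIs per library.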
